A study of Mus musculus with 5 samples.

Results

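A set of 8 transcription factor genes of mesenchyme, limb and somite, among 28786 gene names on the array, was followed across hepatic and neural progenitor cell lines of the mouse: Scx, Prrx1, Prrx2, Msx1, Msx2, Meox1, Meox2 and Six2. They were carried by 16 probes and 34 spots on each array, of 41174 non-control probes and 43379 non-control spots. The genes were chosen by name, after the array values had shown Scx as abundant in the neural progenitor line and far lower in the cells induced from it. All values of Scx, and all values that set the induced cells against the neural progenitor line, are therefore given as a description with no test.

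RNA of 5 cell lines was measured on 1-colour arrays, 1 array per line, with 0.25 µg of RNA per line. The induced hepatic progenitor cells (iHPC, n = 2) were made from the neural progenitor line NSBAg2 with retroviral vectors that carried 9 transcription factors (9F) or 10 (10F). G418, added 3 weeks after infection for 1 week, selected cells by a beta-geo knock-in at Afp, so transcription of Afp was itself selected. The hepatic progenitor cells (HPC, n = 2) were the line HB1, of strain C57BL6J, and the line HNG2, of STOCK Tg(Nanog-GFP, Puro)1 Yam, both from E13.5 fetal liver. The neural progenitor cells (NPC, n = 1) were NSBAg2 itself, derived from the ES cell line BAg73C2, and share the beta-geo allele of Afp with both iHPC lines. The labels do not name the transduced factors, so it is not known here whether any of the 8 genes was among them. HB1 and HNG2 differ in strain, and each iHPC array is a single selected culture, so p-values measure only the spread within these pairs.

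Scx encodes a bHLH factor that marks progenitors of tendons and ligaments. Prrx1 and Prrx2 are paired-related homeobox factors of limb and craniofacial mesenchyme, where they act partly redundantly. Msx1 and Msx2 are homeobox factors that respond to BMP signals in limb, craniofacial and dental mesenchyme and in the dorsal neural tube. Meox1 and Meox2 pattern the somites and the muscle and skeleton derived from them, and Six2 keeps nephron progenitors of the kidney undifferentiated and is also used in craniofacial mesenchyme.

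Promoters, from 250 bases before to 50 bases after the annotated gene start, were found in RefSeq (assembly GRCm38.p6) for 6 of the 8 genes. The pair Prrx1 and Prrx2 is shown because its members lay on opposite sides between the HPC lines. Msx2 is shown because HNG2 had its highest value. Six2 is shown because only NPC gave a measured value, which also holds for Meox2, whose window (1 match) is not printed. Capitals mark every TAAT or ATTA, the core motif of many homeobox factors, searched on both strands with overlapping matches counted.
Prrx1: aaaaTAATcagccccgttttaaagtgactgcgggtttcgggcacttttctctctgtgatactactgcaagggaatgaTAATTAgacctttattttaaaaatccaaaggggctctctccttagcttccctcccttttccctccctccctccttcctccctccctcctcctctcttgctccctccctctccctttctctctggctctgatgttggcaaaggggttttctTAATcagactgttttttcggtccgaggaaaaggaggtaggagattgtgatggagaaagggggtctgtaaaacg
Prrx2: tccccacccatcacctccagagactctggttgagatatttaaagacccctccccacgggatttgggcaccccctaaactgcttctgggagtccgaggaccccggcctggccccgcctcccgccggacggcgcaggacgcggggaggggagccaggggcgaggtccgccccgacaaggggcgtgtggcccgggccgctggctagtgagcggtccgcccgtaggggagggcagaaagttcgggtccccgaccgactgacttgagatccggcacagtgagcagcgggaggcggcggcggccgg
Msx2: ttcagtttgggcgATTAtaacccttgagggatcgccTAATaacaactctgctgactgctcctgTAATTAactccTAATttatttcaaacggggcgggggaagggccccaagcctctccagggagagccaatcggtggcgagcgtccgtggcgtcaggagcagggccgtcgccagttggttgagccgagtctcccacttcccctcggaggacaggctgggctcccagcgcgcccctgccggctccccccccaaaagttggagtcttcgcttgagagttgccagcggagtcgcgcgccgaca
Six2: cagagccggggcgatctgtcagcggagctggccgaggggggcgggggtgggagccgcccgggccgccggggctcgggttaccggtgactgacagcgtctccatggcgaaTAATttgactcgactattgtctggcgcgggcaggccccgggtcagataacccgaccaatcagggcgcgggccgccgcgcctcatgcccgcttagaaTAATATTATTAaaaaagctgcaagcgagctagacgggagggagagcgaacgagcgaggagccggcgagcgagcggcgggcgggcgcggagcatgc
These are chr1:163313601-163313900 (minus strand), chr2:30845117-30845416 (plus strand), chr13:53472731-53473030 (minus strand) and chr17:85688205-85688504 (minus strand), in the order printed. The Prrx1 window held 4 matches and that of its paralogue Prrx2 held 0, and their GC content was 47.7% and 70.3%. The Msx2 window held 5 matches and the Six2 window 4. Of the 6 windows, 5 held the motif at least once, against 58.0% of 32851 RefSeq promoters of the same length, and 3 of 6 held the E-box letters CANNTG, which bHLH factors such as Scx bind, against 72.3%. A match describes letters only, and no array value bears on binding there.

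The labelled cell types were checked against marker genes. Of 14 hepatic markers, 13 were well above background on each iHPC array, 14 on each HPC array and 3 on the NPC array, and Alb and Afp were not well above background on NPC. Of 14 neural progenitor markers, 9 were well above background on each iHPC array, 8 and 9 on the HPC arrays and 10 on NPC. The NPC array measured Nes, Sox2, Pax6 and Sox1, but Gfap, Hes5, Olig2 and Neurog2 were not well above background there. Of 14 mesenchymal markers, NPC had 13 well above background, all but Lum, against 9 and 10 on the iHPC arrays and 5 and 9 on the HPC arrays. Their summed signal, relative to the 75th percentile of each array, was 17.2 and 16.6 in iHPC, 15.9 and 19.4 in HPC, and 206 in NPC. The largest log2 values of these markers in NPC were those of the collagen chains Col1a2, Col3a1 and Col1a1, at 6.53, 5.67 and 4.98. Acta2, Tagln, Cspg4 and Lum were not highest in NPC (Tagln 0.93 in NPC, 2.05 and 1.61 in iHPC 9F and 10F), and the other markers were. The line labelled as neural progenitor thus carried RNA of most, not all, of these mesenchymal markers above the other lines. The part of those markers in the results below was not tested. In bulk RNA, fewer cells of a type and less RNA per cell cannot be told apart. Between 58.9% and 65.6% of the non-control spots of an array were well above background, none was saturated, and the number of arrays limits the precision.

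Scx was far higher in NPC than in any other line. Its probe, at chr15:76541831-76541890 (mm7, plus strand), gave processed signals of 513 and 338 in iHPC 9F and 10F, 1033 and 1877 in HB1 and HNG2, and 55411 in NPC. Every array measured Scx well above background, so the low lines still gave a signal. NPC stood far above all 4 others. Both iHPC signals lay below both HPC signals, but scaled to the 75th percentile of each array the log2 values of 9F and HB1 were close, at -0.20 and -0.05. On the log2 scale relative to the 75th percentile of each array, called the level from here on, Scx averaged -0.60 ± 0.57 in iHPC and 0.54 ± 0.84 in HPC (SD, n = 2 each), and was 6.52 in NPC. Its mean was 139-fold lower in iHPC than in NPC, 105-fold in 9F and 184-fold in 10F. It was 63.0-fold lower in HPC than in NPC and 2.21-fold lower in iHPC than in HPC. Scx was 1.74-fold lower in 10F than in 9F and 2.28-fold higher in HNG2 than in HB1.

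**Figure D1:**
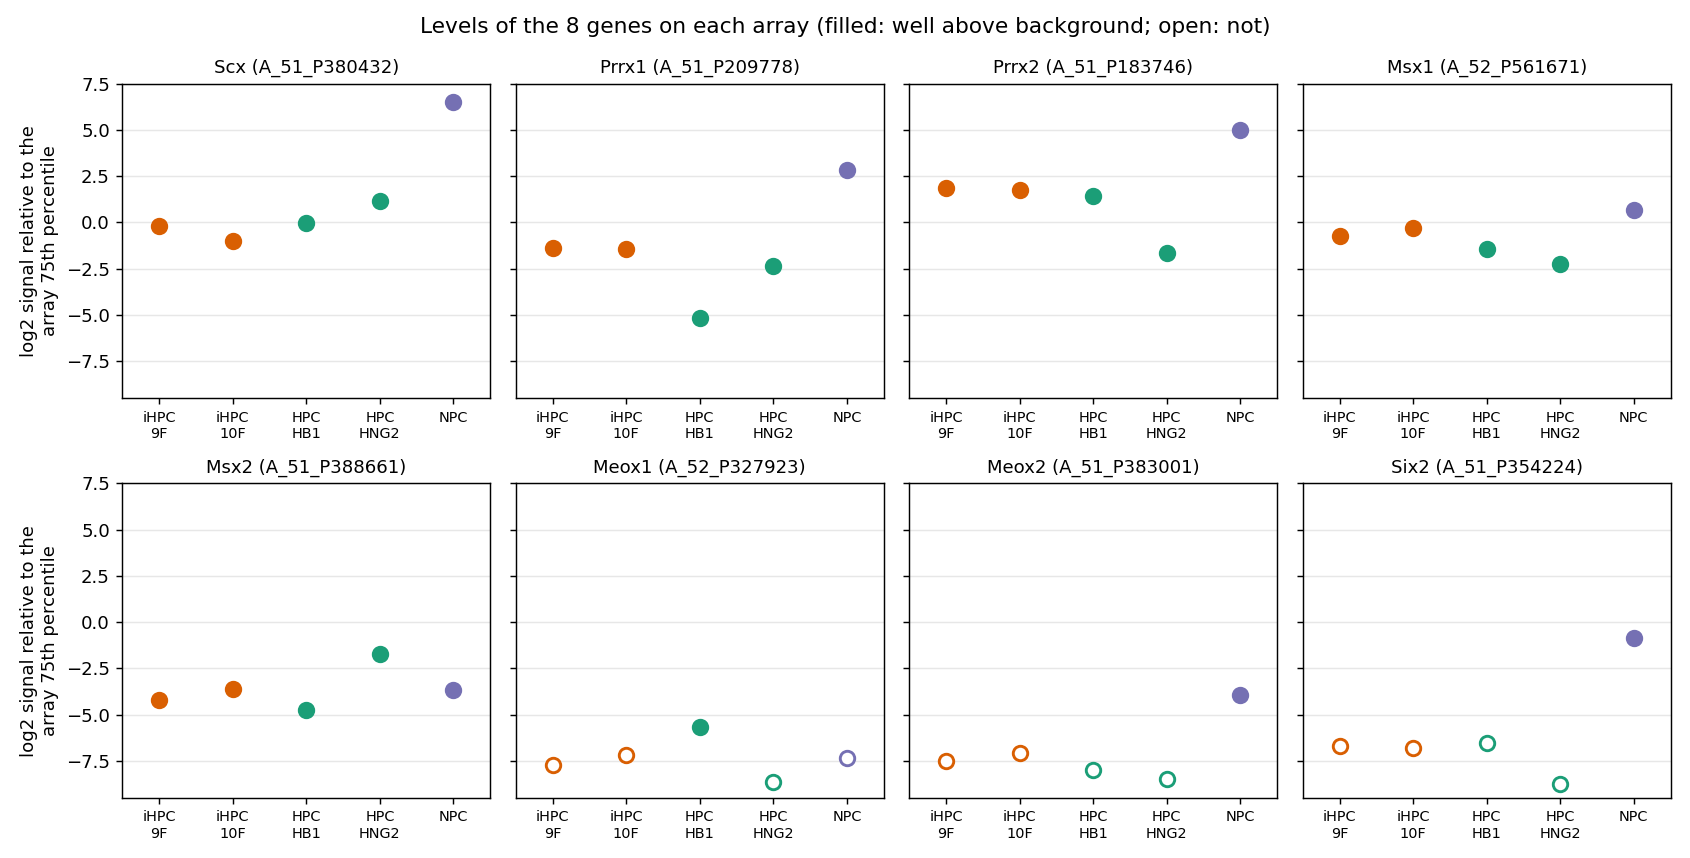
Level of each of the 8 genes on each array (log2 signal relative to the 75th percentile of the array), for the iHPC, HPC and NPC lines from left to right. Each point is 1 array, and open points were not well above background. Scx lay at 6.52 in NPC and at 1.14 or below on the 4 hepatic arrays, and Six2 and Meox2 were well above background in NPC alone.

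The genes whose level ran most like that of Scx were ranked by Euclidean distance over the 5 arrays, after centring each gene on its own mean. Among the nearest of the genes measured were Inka1 (distance 0.966), Rflna (1.48), Acot11 (1.55), Sh3gl3 (1.59) and Rprm (1.66). These genes were well above background in NPC, and of them Sh3gl3 alone on all 5 arrays. The other members were farther away. Of those measured on all 5 arrays, Prrx1 ranked 608 among the 19308 genes tested, Prrx2 1706, Msx1 2371 and Msx2 9915. The distance also counts the size of the differences between arrays, so a gene with a like order of lines can lie far away. Six2 and Meox2, measured in NPC alone, have no meaningful rank, and distances of genes that are dim on some arrays, such as Inka1, Rflna, Acot11 and Rprm, rest partly on values below the limit of measurement.

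Prrx1 was also highest in NPC. Its brightest probe by mean over the arrays, at chr1:163218848-163218907 (mm7, minus strand), gave signals of 222 and 248 in iHPC 9F and 10F, 29.7 and 167 in HB1 and HNG2, and 4326 in NPC. The iHPC arrays were close to each other and above both HPC arrays, which lay far apart. The level averaged -1.43 ± 0.03 in iHPC and -3.76 ± 1.99 in HPC (SD, n = 2 each), and was 2.84 in NPC. Prrx1 was 19.3-fold lower in iHPC than in NPC. Against HPC the iHPC mean differed by 2.34 (SE 1.06) on the log2 scale, with a limma adjusted p = 0.257, which missed the threshold of 0.05. The HPC mean differed from NPC by -6.61 (SE 1.30), with a limma adjusted p = 0.0534.

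Prrx1 is represented by 6 probes on the minus strand of chromosome 1, and they did not all behave alike. The probe at chr1:163209258-163209317 gave 205 and 228 in iHPC, 5.0 in HB1, where it was not well above background, 204 in HNG2 and 4548 in NPC. The probe at chr1:163222856-163222915 gave 133 and 147 in iHPC, 13.6 in HB1, again not well above background, 111 in HNG2 and 2927 in NPC. These 3 probes, all annotated to RefSeq transcripts of Prrx1, had the same order of lines, with NPC highest and HB1 lowest. The probes at chr1:163208051-163208110 and chr1:163244113-163244172 were well above background in NPC alone, at 76.7 and 121. The last probe, at chr1:163214079-163214138 and annotated, like the one at chr1:163244113-163244172, to a cDNA clone only, ran differently, with 9.89 and 13.7 in iHPC, neither well above background, 26.4 and 10.5 in HB1 and HNG2, and 25.0 in NPC.

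**Figure D2:**
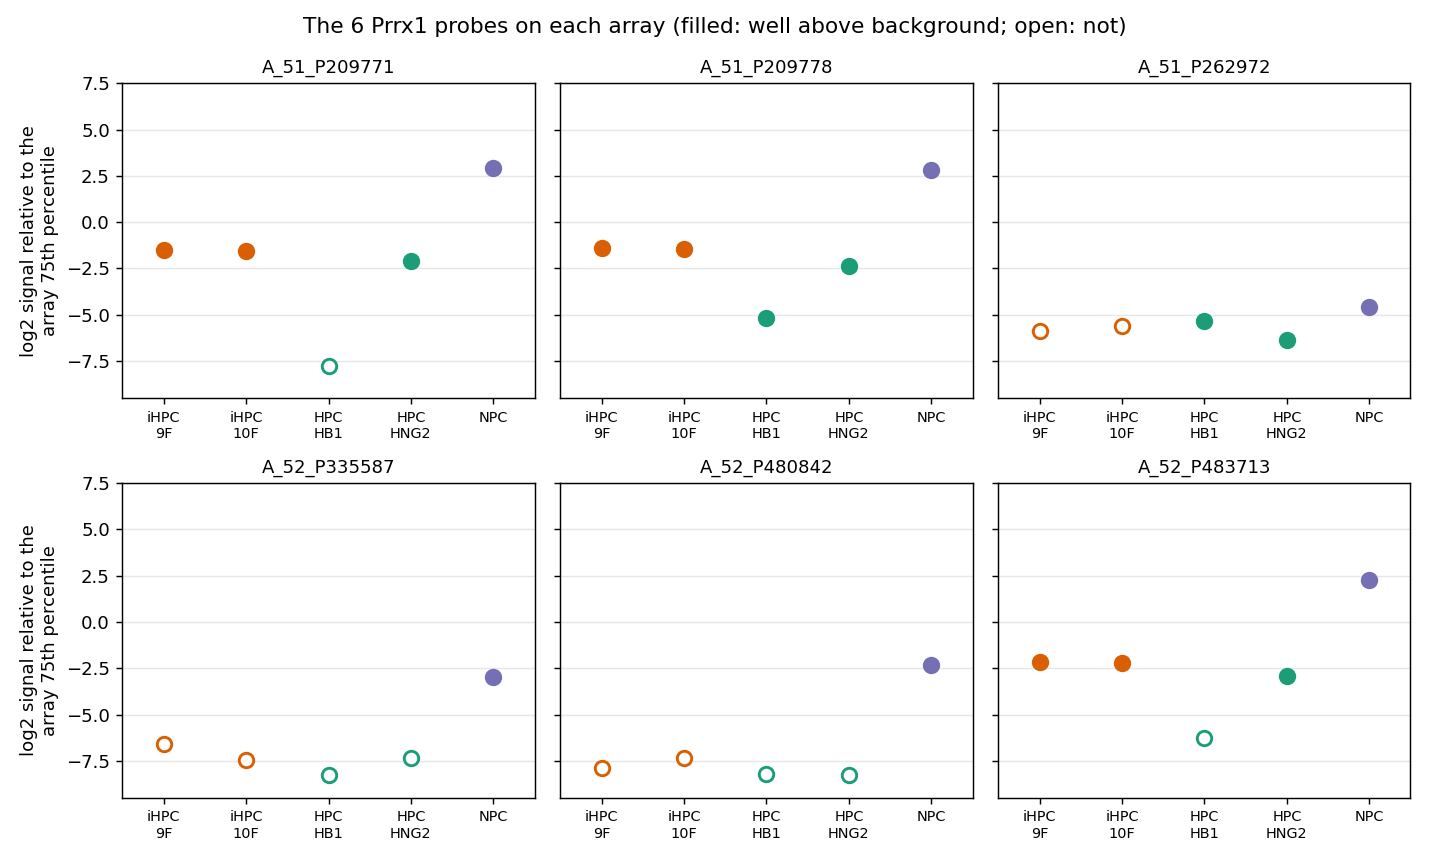
Level of the 6 Prrx1 probes on each array (log2 signal relative to the 75th percentile of the array), with 1 panel per probe, iHPC, HPC and NPC from left to right, and open points for values not well above background. In the 3 bright probes NPC is highest and HB1 lowest, and in the probe of the top right panel, annotated to a cDNA clone, NPC is much closer to the other lines (signal 25.0 in NPC and 26.4 in HB1).

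Prrx2, the paralogue of Prrx1, gave signals of 2164 and 2235 in iHPC 9F and 10F, 2847 and 268 in HB1 and HNG2, and 19203 in NPC, from its single probe at chr2:30888384-30888444 (mm7, plus strand). NPC was again highest and HNG2 lowest. The iHPC signals lay below that of HB1, but their levels of 1.88 and 1.72, scaled within the array, lay above its level of 1.41. The level averaged 1.80 ± 0.11 in iHPC and -0.13 ± 2.18 in HPC (SD, n = 2 each), and was 4.99 in NPC. Prrx2 was 9.14-fold lower in iHPC than in NPC. The difference of iHPC from HPC was 1.93 (SE 1.16, limma adjusted p = 0.36), and that of HPC from NPC was -5.12 (SE 1.42, limma adjusted p = 0.0951).

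Msx1 varied less than Scx and the Prrx pair. Its probe at chr5:36902462-36902521 (mm7, minus strand) gave 351 and 551 in iHPC 9F and 10F, 395 and 178 in HB1 and HNG2, and 972 in NPC. The level averaged -0.52 ± 0.32 in iHPC and -1.85 ± 0.58 in HPC (SD, n = 2 each), and was 0.69 in NPC. After scaling by the 75th percentile, both iHPC levels lay above both HPC levels and below NPC. Msx1 was 2.31-fold lower in iHPC than in NPC. The iHPC mean differed from HPC by 1.33 (SE 0.39, limma adjusted p = 0.146), and the HPC mean from NPC by -2.54 (SE 0.48, limma adjusted p = 0.0508). The other Msx1 probe, at chr5:36902399-36902456 with 10 spots, was dim, with 12.7 and 17.7 in iHPC, 27.2 and 3.15 in HB1 and HNG2, and 37.9 in NPC, and was well above background in HB1 and NPC only.

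Among the 7 genes that passed the filter on dim probes, Msx2 was the one for which NPC was not the highest line. Its probe at chr13:52503611-52503670 (mm7, minus strand) is printed as 10 spots and gave means of 31.7 and 55.3 in iHPC 9F and 10F, 39.8 and 258 in HB1 and HNG2, and 46.6 in NPC. HNG2 stood apart, and the other 4 arrays lay close together. The spots of an array spread little, from 249.5 to 266.3 in HNG2 and from 35.0 to 42.9 in HB1. The level averaged -3.92 ± 0.43 in iHPC and -3.24 ± 2.14 in HPC (SD, n = 2 each), and was -3.70 in NPC. The difference of iHPC from HPC was -0.68 (SE 1.16, limma adjusted p = 0.738), that of HPC from NPC was 0.46 (SE 1.41, limma adjusted p = 0.842), and that of iHPC from NPC was -0.22. Without HNG2 the first became 0.83 and the second -1.05, so the direction of both rested on that line.

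Six2 gave 5.64 and 5.97 in iHPC 9F and 10F, 11.7 and 1.98 in HB1 and HNG2, and 336 in NPC, from its probe at chr17:83981040-83981099 (mm7, minus strand). NPC was the only array on which Six2 was well above background. A value that is not well above background is only an upper limit, so a fold is given as a minimum, against the lowest signal measured well above background on the dim arrays. Six2 was at least 23.9-fold lower in iHPC than in NPC. It was at least 43.9-fold lower in HPC than in NPC (difference -6.79, SE 1.04). Six2 entered the fit through the single NPC array alone, so a lower value elsewhere was built in, and its limma adjusted p = 0.0361 is given as a description. That p was 0.107 with 9F or 10F left out, 0.00392 without HB1 and 0.00267 without HNG2.

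Meox2 gave 3.20 and 4.92 in iHPC 9F and 10F, 4.20 and 2.37 in HB1 and HNG2, and 38.9 in NPC, from its probe at chr12:35014505-35014564 (mm7, plus strand). It too was well above background in NPC alone. Meox2 was at least 2.77-fold lower in iHPC than in NPC. It was at least 5.09-fold lower in HPC than in NPC (difference -4.29, SE 0.37). Like Six2 it entered the fit through NPC alone, and its limma adjusted p = 0.0157 (0.0802 with 9F or 10F left out, 0.00642 without HB1 and 0.00636 without HNG2) is likewise a description. Its other probe, whose annotated position spans 10724 bases, was well above background on no array. Meox1 was not tested, since neither of its probes passed the filter: the probe at chr11:101987137-101987196 was well above background in HB1 alone, at a signal of 20.9, and the probe at chr11:101986522-101986562 on no array.

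Of the 8 genes, 7 passed the filter on dim probes (all arrays of some group had to measure the probe well above background). Six2 and Meox2 passed it through NPC alone, so a difference from NPC was built into their passing and their calls below support nothing. In iHPC against HPC, 0 of the 6 tested genes other than Scx were called by limma at an adjusted p under 0.05, and 2 of 6 (Msx1 and Meox2) at an unadjusted p under 0.05. Meox2 and Six2 were not well above background on any iHPC or HPC array. Their values in this comparison, and the unadjusted p of Meox2, thus rest on signals below the limit of measurement. The background was 5.42% of 19308 genes for the adjusted threshold (3.55% higher, 1.87% lower) and 27.6% for the unadjusted. In HPC against NPC, 2 of 6 (Meox2 and Six2) were called, both lower in HPC, where 15.6% of all genes were called (6.68% higher, 8.95% lower). At an unadjusted p under 0.05 the count was 5 of 6, all but Msx2, where the background was 36.4%. In iHPC against NPC, the contrast that chose the genes, 5 of 7 were more than 4-fold lower and 0 were higher, where 8.12% of all genes were lower and 6.3% higher by that fold. Meox2 counts among those 5 by its processed value, while its bound is 2.77-fold. The 3 comparisons share arrays, so their counts are not independent.

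**Figure D3:**
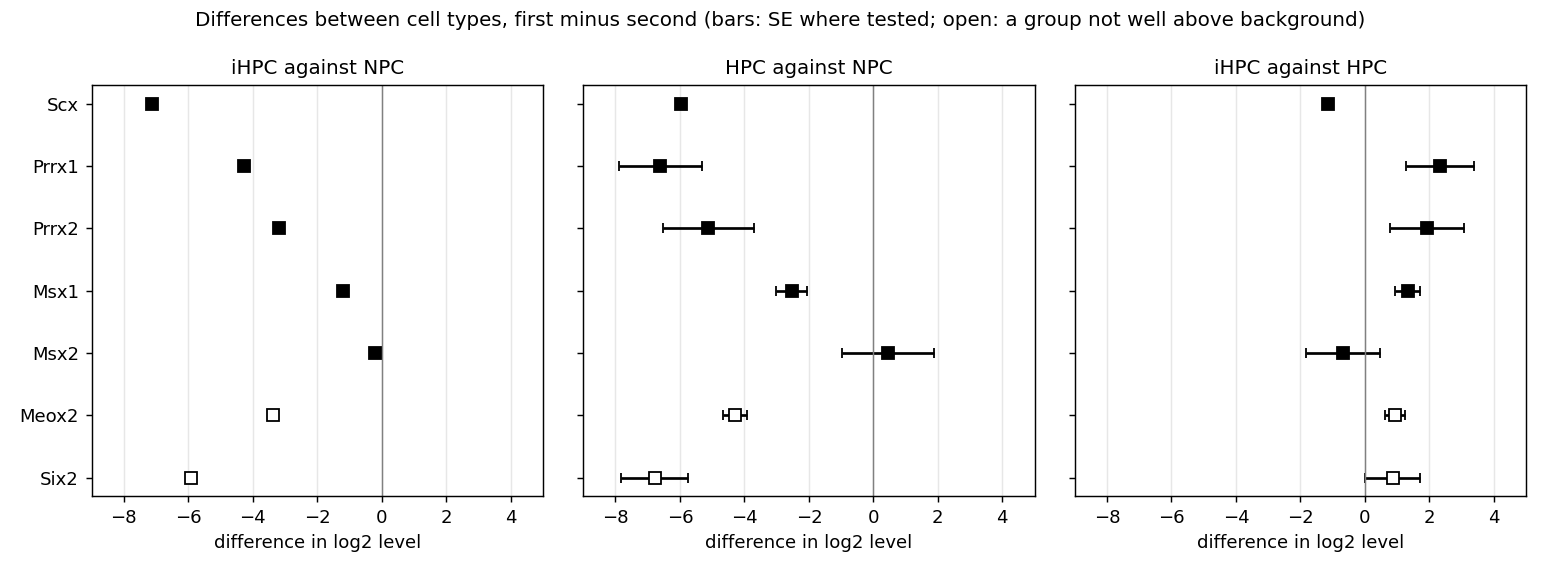
Differences in level for the 7 genes that passed the filter (log2), for iHPC minus NPC, HPC minus NPC and iHPC minus HPC. Bars give the SE where a test was made, and open squares mark genes for which a group was not well above background. Differences from NPC run from -7.12 for Scx to -0.22 for Msx2 in iHPC, and from -6.79 for Six2 to 0.46 for Msx2 in HPC.

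Counts in the comparisons with HPC depended on the array left out, as did the share called over all genes. Leaving out HB1 or HNG2 left only the iHPC arrays to estimate the spread (median SD 0.106). Leaving out 9F or 10F left only the HPC arrays for this (median SD 0.374). The changes in these counts therefore cannot show whether a result rested on any single line. Without HB1, 6 of 6 genes were called in iHPC against HPC (5 higher and 1 lower) while 35.9% of all genes were called, and without HNG2 only Prrx1 was called while the share was 36.0%. In HPC against NPC the count was 6 without HB1 and 5 without HNG2, where 49.3% and 50.4% of all genes were called. Without 9F or without 10F, limma called 0 genes of the whole array in either comparison (1897 and 1931 at an unadjusted p under 0.05 in iHPC against HPC, and 3881 each in HPC against NPC). HB1 and HNG2 were each scanned on a day of their own and the iHPC and NPC arrays together on another, so scan day and HPC cannot be told apart, whereas iHPC and NPC share a day.

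The 2 HPC lines differed from each other in most of these genes. Among the 5 genes measured on both arrays, 4 were more than 2-fold apart. Of all genes measured in at least 1 of these lines, 25.7% were that far apart (9.69% higher and 16.0% lower in HNG2). That share includes genes that were dim in 1 line, which the 5 genes were not, so its basis is unlike. Msx2 was 8.11-fold higher in HNG2 than in HB1, Prrx1 7.02-fold and Scx 2.28-fold. For the other bright Prrx1 probes the bounds were 15.1-fold (at least) and 8.28-fold (at least), again with HNG2 on top, whereas the probe at chr1:163214079-163214138 was 2.01-fold lower. Prrx2 ran the opposite way to its paralogue and was 8.47-fold lower in HNG2 than in HB1, and Msx1 was 1.77-fold lower. With 1 array per line these values have no replicate check. HB1 and HNG2 were scanned on different days and slides, so line, scan day and slide cannot be told apart. Mesenchymal markers differed between the lines too. Of 14, 9 were well above background on at least 1 of the HPC arrays. By processed values, 7 of these were more than 2-fold higher in HNG2 than in HB1, 1 was lower and 1 lay within 2-fold. Of the 7, Col3a1, Pdgfrb, Thy1 and Dcn were not well above background in HB1. The lowest level well above background in HB1 was -5.99, and in HNG2 Thy1 lay at -5.09 and Dcn at -6.17. More than 2-fold is thus not shown for Thy1 and Dcn. The level of Col1a1, a fibrillar collagen chain, was 0.02 in HNG2 and -5.22 in HB1, whereas that of Tagln, a smooth muscle actin-binding protein, was -1.19 in HNG2 and 0.70 in HB1, and that of Acta2, smooth muscle actin, was 4.05 in HNG2 and 3.81 in HB1. The summed signal of the whole list was 19.4 in HNG2 and 15.9 in HB1. Markers of other cell types, where well above background in at least 1 of these lines, also differed by more than 2-fold in processed values. In HNG2, 2 of 14 hepatic markers were higher and 5 lower, and 3 of 10 neural progenitor markers were higher and 3 lower. These counts were 1 and 5 of 6 for skeletal muscle, 1 and 4 of 6 for cartilage and bone, and 2 and 5 of 10 for neural crest. The part of any of these markers in the line differences was not tested.

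The 2 iHPC lines were closer to each other. Unlike the HPC lines they shared a scan day, on different slides, and 10F shared its slide with NPC. Of the same 5 genes, 0 were more than 2-fold apart between 10F and 9F. Of all genes measured in 9F or 10F or both, 3.15% were (1.17% higher and 1.98% lower in 10F). Scx was 1.74-fold lower in 10F, Msx2 1.52-fold higher and Msx1 1.36-fold higher, and Prrx1 and Prrx2 were 1.03-fold and 1.11-fold lower.

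Other genes of the same tissues were described in 4 lists. Of 25 tested genes of tendon and connective tissue (28 listed), most of them matrix genes, 10 fell in HPC relative to NPC and 0 rose, with a median difference of -5.14 against -0.02 over all genes. Over all genes 8.95% were called lower and 6.68% higher, and 2 of the 10 had entered the fit through NPC alone. Col3a1, a fibrillar collagen of loose connective tissue, differed by -11.14 (SE 1.75, limma adjusted p = 0.0372), with a value well above background on 1 of the 2 HPC arrays. In iHPC against NPC, 16 of 25 were more than 4-fold lower and 0 higher, with a median of -2.86 against 0.03 over all genes, where 8.12% of all genes were lower and 6.3% higher by that fold. For 5 of the 25 one side gave only a bound, and 3 of the 16 had passed the filter through NPC alone. Col1a2, the partner chain of Col1a1 in type I collagen, was 194-fold lower in iHPC than in NPC, and Col1a1 and Mfap4, a microfibril-associated glycoprotein, at least 1279-fold and at least 1018-fold. In iHPC against HPC the median was 1.05 against 0.05 over all genes, or 0.88 with genes not well above background set at their bound. Of the 25, 1 was called, which is not above the 5.42% called over all genes. It was Comp, a cartilage and tendon matrix protein, which rose by 3.78 (SE 0.28, limma adjusted p = 0.0231, 13.7-fold). The counts of called genes in this list, too, rose with HB1 or HNG2 left out and fell with 9F or 10F left out, as did the calls over all genes.

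Of 28 tested limb and mesenchymal transcription factors (40 listed), 11 fell in HPC relative to NPC and 0 rose (median -2.88, or -2.19 with genes not well above background set at their bound), where 8.95% of all genes were called lower and 6.68% higher. Of the 11, 2 had entered the fit through NPC alone. Twist1, a bHLH factor of mesenchyme and neural crest, differed by -8.25 (SE 1.32, limma adjusted p = 0.0385), with a value well above background on 1 of the 2 HPC arrays, and the bounds of Barx1 and Tbx18 were at least 69.4-fold and 42.0-fold, both lower in HPC. In iHPC against NPC, 13 were more than 4-fold lower and 2 higher, where the shares over all genes were 8.12% and 6.3%. The lower ones included the homeobox genes Dlx1 and Dlx2 of branchial arches and forebrain, 22.1-fold and 17.0-fold lower, and the higher ones were Foxd1, a forkhead factor of kidney stroma, at least 44.9-fold, and Irx3, at least 5.21-fold. In iHPC against HPC the median was 0.96 against 0.05 over all genes, or 0.79 with genes not well above background set at their bound. Of the list, 4 rose and 1 fell, where 3.55% of all genes were called higher and 1.87% lower. Of the 4, Tbx18, Barx1 and Alx1 were well above background on neither HPC array and passed the filter through iHPC and NPC. A lower value in HPC was thus built in for them, in both comparisons with HPC. Lhx2, a LIM homeobox factor of forebrain, limb and hepatic stellate cells, rose by 5.47 (SE 0.35, limma adjusted p = 0.0205), with a value well above background on 1 of the 2 HPC arrays. Tbx18 was higher by at least 8.43-fold in iHPC, Barx1 by at least 4.71-fold and Alx1 by at least 4.08-fold, and Tbx3, a T-box factor of limb and hepatoblast, fell by 3.34 (SE 0.38, limma adjusted p = 0.0377). Lhx2 was also 2.37-fold higher in iHPC than in NPC, whereas Barx1 was 14.7-fold lower in iHPC than in NPC. The called genes numbered 19 without HB1, 25 without HNG2 and 0 with 9F or 10F left out in HPC against NPC, and 19, 21 and 0 in iHPC against HPC, where the shares over all genes were again 49.3% and 50.4%, and 35.9% and 36.0%.

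Among 20 tested relatives and partners of Msx1, Six2 and Meox2 (25 listed), 2 rose and 7 fell in HPC relative to NPC (median -0.85), where 6.68% of all genes were called higher and 8.95% lower. Of the 7, 1 had entered the fit through NPC alone. Of the 2 that rose, Eya2 was not well above background in NPC, so a lower value in NPC was built in for it. Eya1, a coactivator of homeobox factors in placode, kidney and muscle precursors, was 89.9-fold lower in HPC than in NPC (limma adjusted p = 0.0113). In iHPC it was 7.83-fold lower than in NPC. In iHPC against HPC 2 genes of the list rose, among them Eya1, 11.5-fold higher in iHPC (limma adjusted p = 0.0269), where 3.55% of all genes were called higher. Eya2, a relative of Eya1, rose in HPC by at least 33.1-fold relative to NPC (limma adjusted p = 0.0145). In HPC against NPC the called genes numbered 13 without HB1, 12 without HNG2 and 0 with 9F or 10F left out, and in iHPC against HPC 14, 12 and 0. The shares called over all genes without HB1 and without HNG2 were 49.3% and 50.4% in HPC against NPC, and 35.9% and 36.0% in iHPC against HPC.

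Of 20 tested genes of BMP signalling (21 listed), 1 rose and 5 fell in HPC relative to NPC, with a median of 0.15, which turned to -0.31 with normexp background correction. Over all genes 6.68% were called higher and 8.95% lower, so the single gene that rose is near the background, and 1 of the 5 that fell had entered the fit through NPC alone. Id2, an inhibitor of bHLH factors and a BMP target, was 15.9-fold higher in HPC (limma adjusted p = 0.0222), while Bambi, a pseudoreceptor, and Id3 were 8.56-fold and 5.61-fold lower (limma adjusted p = 0.0484 and 0.0204). In iHPC against NPC, 3 were more than 4-fold higher, among them the BMP antagonist Nog (4.14-fold), and 2 lower, where 6.3% of all genes were higher and 8.12% lower by that fold. The lower ones were another antagonist, Grem1 (53.6-fold), and the receptor Bmpr1b, which was not well above background in iHPC and has a bound of at least 2.73-fold only. In iHPC against HPC, Id4 alone was called, 5.39-fold higher (limma adjusted p = 0.0389), and 1 of 20 is not above the 5.42% over all genes. Called BMP genes numbered 11 without HB1, 13 without HNG2 and 0 with 9F or 10F left out in HPC against NPC, and 8, 12 and 0 in iHPC against HPC, beside 49.3%, 50.4%, 35.9% and 36.0% over all genes without HB1 or HNG2.

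**Figure D4:**
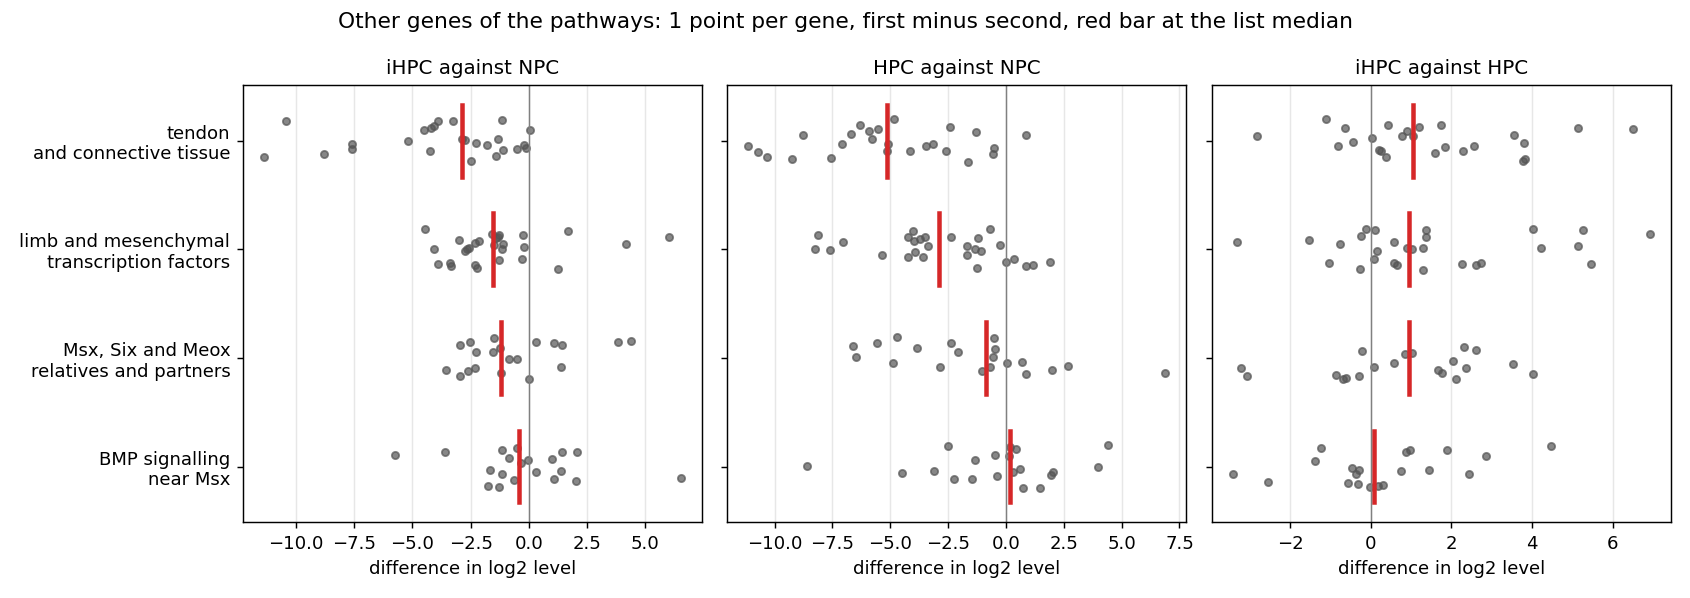
Differences in level (log2) of the genes of the 4 lists, 1 point per gene, in iHPC minus NPC, HPC minus NPC and iHPC minus HPC, with a red bar at the median of each list. The tendon and connective tissue genes have medians of -2.86 in iHPC minus NPC and -5.14 in HPC minus NPC, and the BMP genes have medians of -0.41 and 0.15 (-0.31 for the second with normexp background correction).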

How the data were processed

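RNA of 5 mouse cell lines was measured on 1-colour Agilent arrays of 45018 spots, of which 43379 were not controls. The deposited values are spot intensities corrected for background in Agilent Feature Extraction 10.7.3.1, per the file headers. The deposited series matrix equalled these intensities on 100% of the spots.

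Levels are log2 of the processed intensity minus log2 of the 75th percentile of that array, which was 589.7 to 1070. Controls and spots marked as outliers were dropped, and repeated spots of a probe averaged. A probe was well above background where more than 50% of its used spots were. Probes were named through RefSeq accessions of GRCm38.p6 (22951 of 41174), by a symbol found there (6659), or kept the file's name (11564). Probe positions are in mm7, per the file headers, and promoter sequences are from RefSeq, GRCm38.p6. A probe was kept if all arrays of some group had it well above background. Its brightest probe by mean stood for each of 19308 genes.

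Groups follow the cell type in the labels. The test was limma 3.58.1 (R 4.3.3), two-sided, with 1 linear model over 5 arrays in 3 groups, moderated by eBayes. It had 2 residual degrees of freedom, and Benjamini-Hochberg adjustment ran over all genes. NPC, with 1 array, was taken to vary as much as the pairs, whose median SD of a gene was 0.374 in HPC and 0.106 in iHPC. An exact permutation test of 2 arrays against 2 cannot go below p = 0.333. The fit was tested on simulated data, and the tables and figures were made with Python 3.11.15. The members and gene lists were chosen with earlier results of these data known. All 8 genes are named. From each list the text took its examples from the 4 largest differences in each direction among called genes, or among all genes tested in iHPC against NPC. Some genes that these rules select are not reported here. Differences between 2 single arrays and list medians use processed values as they stand. The alternatives were quantile normalization, median centring, normexp background correction, other filters and probe rules, other fits, and leaving out each array.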

Additional observations from a re-analysis of the deposited data

Results flagged for a closer look

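Msx2 drew attention because lines of 1 group lay on opposite sides of NPC. Its level in iHPC 9F minus NPC was -0.52 and in iHPC 10F minus NPC was 0.083 on the log2 scale. In HNG2 minus NPC it was 1.97 and in HB1 minus NPC it was -1.05. Each of these values compares 2 single arrays, and the differences between the lines of a group were not tested.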

How the results depend on the processing

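The directions of the differences of Scx, Prrx1, Prrx2 and Msx1 were the same under every alternative run for them. Members called in iHPC against HPC numbered 0 under each other setting, and ran from 0 to 6 when 1 array was left out. Members called in HPC against NPC numbered 2 (Meox2 and Six2). They numbered 3 with quantile normalization or median centring, which add Msx1, and 3 with the mean of all probes, which adds Prrx1. Restricted to probes that every array measured, the 2 called were Prrx1 and Msx1. The count was 4 with normexp background correction, 4 with an intensity trend in eBayes, 1 with no filter on dim probes, 0 with the iHPC arrays as separate groups, and from 0 to 6 when 1 array was left out. Members more than 4-fold lower in iHPC than in NPC numbered 3 of those well above background on all arrays. Msx2 reversed without HNG2, to 0.83 in iHPC against HPC (-2.19 without HB1) and to -1.05 in HPC against NPC (1.97 without HB1), and without iHPC 9F, to 0.083 in iHPC against NPC (-0.52 without 10F). Six2 in iHPC against HPC, dim in both, became -0.25 without HNG2 and 1.99 without HB1. In HPC against NPC the adjusted p of Msx1 ran from 0.0117 to 0.17 over its 9 alternatives, that of Prrx1 from 0.0025 to 0.145, that of Six2 from 0.00267 to 0.107 and that of Meox2 from 0.00636 to 0.0802. Normexp gave smaller differences of iHPC from NPC for Six2 (-2.59 in place of -5.92) and Meox2 (-0.78 in place of -3.36), which are dim in iHPC. Median centring moved the median of all genes to -0.20 in iHPC against HPC and to 0.29 in HPC against NPC, and normexp moved it to 0.18 and -0.19. The BMP list median turned to -0.17 in iHPC against HPC with median centring and to -0.31 in HPC against NPC with normexp, and no other list median turned with quantile normalization, median centring or normexp. With 9F or 10F left out, the differences of HPC from NPC were unchanged, at -6.79 for Six2 and -4.29 for Meox2. In those fits, and with the iHPC arrays as separate groups, the spread came from the HPC pair alone. The cause of the other changes was not tested. Leaving out an array for single genes and lists was chosen after seeing the data. A random block for slide could not be fitted, and a scan day block was not run because it cannot estimate the comparisons with HPC. No paired analysis was possible because the labels give no replicate numbers shared between groups.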
